A study of Mus musculus with 4 samples.

Results

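Early B cell development genes were followed as 10 transcripts that mark the stages at which immunoglobulin genes are assembled: *Rag1*, *Rag2*, *Dntt*, *Vpreb1*, *Vpreb2*, *Vpreb3*, *Igll1*, *Ebf1*, *Pax5* and *Il7r*. They are 10 of the 19491 genes listed in at least 1 of 4 single-cell libraries. Each was read in cells with a UMI (a uniquely tagged transcript molecule) of *Cd79a*, the signalling chain of the B cell receptor, and in all other cells of the same library.

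Adult C57BL/6J mice, 8 weeks old per the design text, gave the CD45+ immune cells, taken by flow sorting from either dura mater or brain and sequenced on the 10× Chromium platform. D3 cells came from mice on day 3 after photothrombotic injury (PTI), in which a light-activated dye is used to clot vessels, and S3 cells from controls that carry only the label CT and were taken as the sham group. There was 1 library for each tissue and condition, and the number of mice behind a library is not given in the sources used here. Differences between S3 and D3 therefore have no replicate check and no p-value, and all intervals below are 95% intervals that cover counting error only.

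In developing B cells the RAG1 and RAG2 proteins cut the immunoglobulin gene segments, terminal transferase (*Dntt*) adds bases at the heavy chain joints, and the surrogate light chain, made of VPREB and IGLL1 (λ5), pairs with a new heavy chain in the pre-B cell receptor. EBF1 and PAX5 set up and hold the B cell program, and the interleukin-7 receptor (*Il7r*) carries the survival and growth signal of mouse B cell precursors. In adult mice this sequence is known mainly from bone marrow, while mature B cells carry *Ms4a1* (CD20) and *Ighd* (IgD) and have turned the recombination genes off.

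*Rag1* (chr2:101638282-101649501, minus strand) and *Rag2* (chr2:101624718-101632529, plus strand) are neighbours on GRCm38, with 5752 bases between them. *Vpreb1* (chr16:16868403-16870843) and *Igll1* (chr16:16860671-16863985) lie on the minus strand of chromosome 16 with 4417 bases between them, and *Vpreb2* (chr16:17980428-17981273) lies on the plus strand 1109584 bases from *Vpreb1*. The sequences upstream of the RefSeq start sites of *Rag1* and *Igll1* are shown because these genes stand for the recombinase and surrogate light chain genes compared below. They are 250 bases of GRCm38.p6 each, written in the direction of transcription and ending next to the start site. Capitals mark an EBF core (CCCNNGGG) or an E-box (CAGGTG or CAGCTG), the letters read by E proteins. Both strands were searched.
*Rag1*, chr2:101649533-101649782, minus strand: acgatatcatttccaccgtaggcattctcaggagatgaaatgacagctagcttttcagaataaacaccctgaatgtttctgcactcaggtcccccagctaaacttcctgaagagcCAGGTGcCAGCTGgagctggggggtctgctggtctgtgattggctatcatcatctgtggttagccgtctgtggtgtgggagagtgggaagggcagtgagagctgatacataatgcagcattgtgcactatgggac
*Igll1*, chr16:16863986-16864235, minus strand: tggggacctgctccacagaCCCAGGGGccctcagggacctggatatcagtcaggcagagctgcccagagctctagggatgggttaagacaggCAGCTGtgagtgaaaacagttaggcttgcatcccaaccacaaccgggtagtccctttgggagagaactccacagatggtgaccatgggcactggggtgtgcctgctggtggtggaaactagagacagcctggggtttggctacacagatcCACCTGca
The *Rag1* window held CAGGTG and CAGCTG at positions -135 and -128 from the start. The *Igll1* window held the EBF core at -231, CAGCTG at -158 and CAGGTG, on the opposite strand, at -8. In the 11 windows of 300 bases available for the 10 genes, of which 50 bases lie past the start, CAGGTG was found in 4, CAGCTG in 3 and the EBF core in 1. Among all 32851 mouse promoter windows of that length, 20.2% held CAGGTG, 16.3% held CAGCTG and 13.7% held the EBF core, so these letters are common and a match describes the sequence only.

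After the authors' limits on detected genes and mitochondrial UMIs, and after removal of likely doublets, 3439 cells were kept for dura mater S3, 2603 for dura mater D3, 3618 for brain S3 and 4438 for brain D3. The kept cells held 37590286 to 72390201 UMIs per library, with medians of 8252 to 14269.5 UMIs per cell. *Ptprc*, which encodes CD45, had a UMI in 91.9% to 95.5% of kept cells. Between 3 and 11 barcodes were shared by any pair of libraries.

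*Cd79a*-positive cells made up 27.3% of kept cells (940 cells, interval 25.8% to 28.9%) in dura mater S3 and 9.18% (239 cells, 8.10% to 10.36%) in dura mater D3. In the brain there were 670 such cells at S3 and 112 at D3. Cells with only 1 or 2 *Cd79a* UMIs were 21.3% of the *Cd79a*-positive cells at S3 and 27.2% at D3 in dura mater. Of these, 3.50% had a *Pax5* UMI at S3 and 3.08% at D3. A UMI of the myeloid lysozyme gene *Lyz2* was found in 96.5% and 98.5% of them. They were not free of B cell transcripts, since *Ighm* had a UMI in 93.7% of all 940 *Cd79a*-positive cells at S3. At least 3 of 5 macrophage and monocyte markers were found in 12.3% of the *Cd79a*-positive cells at S3 and 25.1% at D3, and in 2.97% and 5.75% of those with at least 3 *Cd79a* UMIs. Among cells with at least 3 *Cd79a* UMIs, 88.4% and 87.4% had *Pax5*, 99.6% and 98.3% had *Ebf1*, and 57.6% and 69.5% had *Lyz2*. The values are therefore given for all *Cd79a*-positive cells and again for the 740 (S3) and 174 (D3) dura mater cells with at least 3 *Cd79a* UMIs.

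All 10 genes were listed in both dura mater libraries and were lower in *Cd79a*-positive cells at D3 than at S3. Of the 10, 8 were at least 2-fold lower, 0 were higher, and every counting interval of the log2 ratio of D3 over S3 lay below 0. When each cell was thinned to 2000 UMIs, 4 of the 10 were at least 2-fold lower, the median log2 ratio was -0.87, and the intervals of *Rag2*, *Vpreb2* and *Pax5* included 0. The share and the median over all genes were not taken after thinning, so these values have no background beside them. Without thinning, over all 12488 genes with at least 10 UMIs, 7.07% were at least 2-fold lower and 6.59% at least 2-fold higher, and 18.6% had an interval below 0. The median log2 ratio without thinning was -1.41 for the 10 genes and -0.08 for all genes. In cells with at least 3 *Cd79a* UMIs, 6 of the 10 were at least 2-fold lower, against 6.44% of 11357 genes, with a median of -1.11, and 9 of the 10 intervals lay below 0, against 13.2%.

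The recombinase genes were lower at D3. *Rag1*, which overlaps *B230118H07Rik* on the same strand, encodes the subunit that cuts. *Rag1* stood at 76.2 UMIs per 1000000 (CPM) in *Cd79a*-positive cells of dura mater S3 (731 UMIs) and at 24.8 CPM in D3 (65 UMIs), and it was not listed in either brain library. Because a file lists only genes found in at least 3 barcodes, an unlisted gene can have been in at most 2. The log2 ratio of D3 over S3 for *Rag1* was -1.62 (-2.01 to -1.25) in all *Cd79a*-positive cells and -1.27 (-1.66 to -0.90) in those with at least 3 *Cd79a* UMIs. In S3, 24.9% of the *Cd79a*-positive cells had a *Rag1* UMI (22.2% to 27.8%), and in D3 8.79% (5.52% to 13.1%). The median depth of these cells was 6406.5 UMIs at S3 and 6404 at D3, and 5768.5 and 5358.5 in those with at least 3 *Cd79a* UMIs. Summed, the *Cd79a*-positive cells held 9589240 UMIs at S3, of which 6172094 lay in cells with at least 3 *Cd79a* UMIs. At D3 these sums were 2622706 and 1332229. Cells with 1 or 2 *Cd79a* UMIs thus gave a larger part of the UMIs to which CPM are scaled at D3, which lowers the CPM of genes they lack. In all other cells, which should lack *Rag1* and were deeper (medians 10646 and 14628.5), it was found in 0.400% and 0.0846%.

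*Rag2* showed the same order at a lower level, with 16.4 CPM at S3 (157 UMIs) and 6.10 CPM at D3 (16 UMIs) in dura mater. In the brain it was not listed at S3 and had 1 UMI in the *Cd79a*-positive cells of D3. Its log2 ratio was -1.42 (-2.27 to -0.68), and -1.06 (-1.91 to -0.32) with at least 3 *Cd79a* UMIs. *Dntt*, the polymerase that adds untemplated bases, was carried by few cells. It had 84.1 CPM at S3, 806 UMIs in 41 cells, and 32.0 CPM at D3, 84 UMIs in 4 cells. The log2 ratio of -1.39 (-1.73 to -1.07) thus rests on 4 cells at D3, and its counting interval, which treats UMIs as independent, is too narrow. With at least 3 *Cd79a* UMIs it was -0.94 (-1.28 to -0.61), short of 2-fold. The share of cells with *Dntt* was 4.36% (3.15% to 5.87%) in S3 and 1.67% (0.458% to 4.23%) in D3, with overlapping intervals.

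*Vpreb1* and *Igll1*, of the surrogate light chain, had the lowest ratios of the 10 genes in these cells. *Vpreb1* stood at 157.6 CPM in dura mater S3 (1511 UMIs) and 35.8 CPM in dura mater D3 (94 UMIs), and the brain held 4 UMIs at S3 and 1 at D3. Its log2 ratio was -2.14 (-2.45 to -1.84), and -1.82 (-2.14 to -1.52) in cells with at least 3 *Cd79a* UMIs. *Igll1* had 107.4 CPM at S3 (1030 UMIs) and 26.3 CPM at D3 (69 UMIs) in dura mater, 1 UMI in brain S3, and was not listed in brain D3. The log2 ratio of *Igll1* was -2.03 (-2.40 to -1.68), and -1.69 (-2.06 to -1.33) with the stricter gate. At D3, 94.2% of the *Igll1* UMIs and 93.6% of the *Vpreb1* UMIs came from the 5 highest cells. The share of cells with *Igll1* was 9.89% (8.06% to 11.98%) in S3 and 3.35% (1.46% to 6.49%) in D3. For *Vpreb1* it was 10.3% (8.45% to 12.4%) and 4.60% (2.32% to 8.09%), and 6.22% and 1.52% with each cell thinned to 2000 UMIs. The *Igll1*-positive cells had a median of 13018 UMIs at S3 and 25586.5 at D3, and the *Vpreb1*-positive cells 11307 and 23259.

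*Vpreb2* had 17.4 CPM at S3 (167 UMIs in 36 cells) and 5.72 CPM at D3 (15 UMIs in 2 cells), and no UMI in the *Cd79a*-positive cells of the brain. Its log2 ratio was -1.61 (-2.48 to -0.84), and -1.25 (-2.12 to -0.48) with at least 3 *Cd79a* UMIs. *Vpreb1* and *Vpreb2* transcripts are 97.4% identical over 759 aligned bases, and 8.47% and 15.8% of their 91-base windows are shared with each other, so counts of this pair are uncertain. None of the shared windows lay wholly in the last 400 bases, where 3′ libraries mostly read. *Vpreb3*, a relative that binds newly made immunoglobulin chains, was far more abundant. It stood at 1321 CPM in dura mater S3, 637.1 in dura mater D3, 206.5 in brain S3 and 144.5 in brain D3. Its log2 ratio in dura mater was -1.05 (-1.13 to -0.98), and -0.71 (-0.79 to -0.64) in cells with at least 3 *Cd79a* UMIs.

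The transcription factors had the ratios nearest to 0. *Ebf1* stood at 1466 CPM in dura mater S3, 818.2 in dura mater D3, 871.2 in brain S3 and 499.1 in brain D3. Its log2 ratio in dura mater was -0.84 (-0.91 to -0.78), and -0.50 (-0.56 to -0.43) with the stricter gate. *Pax5*, which is kept on in mature B cells, stood at 236.0 CPM in dura mater S3, 175.8 in dura mater D3, 166.0 in brain S3 and 80.6 in brain D3. The log2 ratio of *Pax5* in dura mater was -0.43 (-0.57 to -0.28) in all *Cd79a*-positive cells, while in cells with at least 3 *Cd79a* UMIs it was -0.09 (-0.24 to 0.06), an interval that includes 0.

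*Il7r*, the cytokine receptor, had 155.8 CPM in *Cd79a*-positive cells of dura mater S3, 74.4 in D3, 34.1 in brain S3 and 52.8 in brain D3. In dura mater the log2 ratio was -1.07 (-1.29 to -0.85), and -1.16 (-1.43 to -0.90) with the stricter gate. *Il7r* had a UMI in 37.1% of the cells (34.03% to 40.3%) in S3 and 20.9% (15.9% to 26.6%) in D3. When each *Cd79a*-positive cell was thinned to 2000 UMIs, with 1 shallower cell left out at S3 and 0 at D3, the share with *Il7r* was 21.3% at S3 and 11.6% at D3, that with *Rag1* 15.1% and 6.38%, and that with *Igll1* 5.62% and 1.42%.

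**Figure D1:**
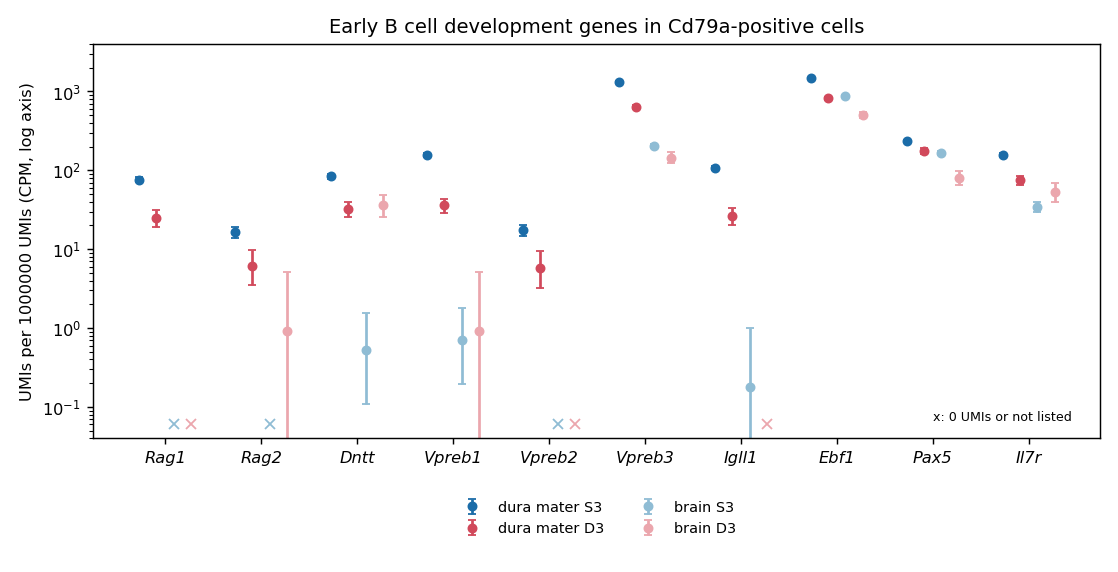
Level of each gene (UMIs per 1000000 UMIs, log axis) in *Cd79a*-positive cells of the 4 libraries, with exact Poisson 95% intervals for counting error; crosses mark 0 UMIs or a gene not listed, and some lower ends run off the axis. Every blue point (dura mater S3) lies above the red point (dura mater D3) of the same gene, and *Rag1*, *Vpreb1* and *Igll1* are at 0 to 4 UMIs in the brain.

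The dura mater and the brain differed in these genes under both conditions. At S3, 34.1% of the *Cd79a*-positive cells of the dura mater (321 of 940) had a UMI of *Rag1*, *Rag2*, *Dntt*, *Vpreb1*, *Vpreb2* or *Igll1*, against 0.896% (6 of 670, 0.329% to 1.94%) in the brain. At D3 these shares were 15.5% (37 of 239) and 2.68% (3 of 112, 0.556% to 7.63%). *Vpreb1* was 222-fold higher per UMI in dura mater than in brain at S3, on 4 brain UMIs (log2 ratio 7.79, 6.43 to 9.67). Its brain level in *Cd79a*-positive cells, 0.71 CPM, was no higher than the 0.72 CPM in all other cells of brain S3. The fold is thus a ratio to the level seen in cells without *Cd79a*. *Vpreb3* was 6.40-fold and *Il7r* 4.57-fold higher in dura mater, while *Ebf1* and *Pax5* were 1.68-fold and 1.42-fold higher. *Vpreb2* had 0 UMIs in the brain and was at least 32.7-fold higher in dura mater, set against a floor of 3 UMIs. At D3 the log2 ratios of dura mater over brain were 2.14 (1.90 to 2.39) for *Vpreb3*, 0.49 (0.06 to 0.95) for *Il7r*, 0.71 (0.58 to 0.85) for *Ebf1* and 1.13 (0.79 to 1.47) for *Pax5*. For *Dntt* the D3 ratio was -0.17 (-0.74 to 0.41), but the 39 UMIs in the brain came from 2 cells.

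Cells with an early gene were a smaller share of the dura mater cells at D3, and so were B cells with *Ms4a1*. *Cd79a*-positive cells with a UMI of at least 1 of the 6 recombinase and surrogate light chain genes were 9.33% of all kept cells in S3 (8.38% to 10.36%) and 1.42% in D3 (1.003% to 1.95%). Within the *Cd79a*-positive cells they were 34.1% (31.1% to 37.3%) and 15.5% (11.1% to 20.7%), and within the cells with at least 3 *Cd79a* UMIs 41.4% (37.8% to 45.0%) and 19.5% (13.9% to 26.2%). The same genes gave a UMI in 4.32% and 2.03% of all other cells, where at S3 *Dntt* was in 50 cells and *Vpreb1*, by single UMIs, in 33. Cells with at least 3 *Cd79a* UMIs and *Ms4a1* were 12.5% of kept cells (11.4% to 13.7%) in S3 and 5.42% (4.58% to 6.36%) in D3, while those without *Ms4a1* were 9.01% (8.08% to 10.0%) and 1.27% (0.874% to 1.78%). Among *Cd79a*-positive cells, *Ms4a1* was found in 46.3% at S3 and 60.3% at D3, and *Ighd* in 41.9% (38.7% to 45.1%) and 54.0% (47.4% to 60.4%). In all other cells *Ms4a1* was found in 2.48% and 1.31%, and *Ighd* in 3.48% and 2.24%.

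*Rag1* and *Igll1* were found together in part of the cells. At S3, *Rag1* was found in 50.5% of *Igll1*-positive cells, against 22.1% of *Cd79a*-positive cells without *Igll1*. *Igll1* was found in 20.1% of *Rag1*-positive cells, against 6.52% of those without *Rag1*. A cell without a UMI of a gene can still carry its transcript, so the groups below are groups by detection. At S3, 196 cells (20.9% of the *Cd79a*-positive cells) had *Rag1* or *Rag2* and no surrogate light chain UMI, 72 (7.66%) had both, 46 (4.89%) had surrogate light chain alone and 626 (66.6%) had neither. At D3 these were 24 (10.0%), 4 (1.67%), 7 (2.93%) and 204 (85.4%). The proliferation gene *Mki67* was found in 23.0% (17.3% to 29.5%) of the cells with recombinase genes alone at S3, against 58.3% (46.1% to 69.8%) of those with both and 63.0% (47.5% to 76.8%) of those with surrogate light chain alone. Depth moved with this, since the median was 4987.5 UMIs in the first kind of cell, 11502 in the second and 17041 in the third; its part in the shares was not tested. *Dntt* was found in 0.510%, 40.3% and 8.70% of these cells, and *Ms4a1* in 21.9%, 4.17% and 13.0%. Of 8 *Igll1*-positive cells at D3, all 8 had *Vpreb1* and *Mki67*.

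**Figure D2:**
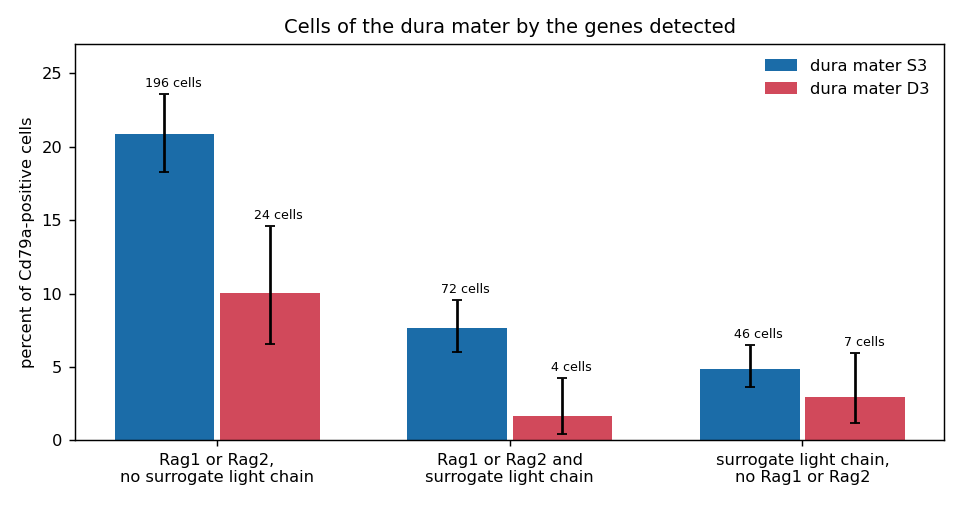
Percent of *Cd79a*-positive dura mater cells (940 at S3, 239 at D3) with recombinase genes, surrogate light chain genes or both, with exact binomial 95% intervals and cell numbers above the bars. The intervals of S3 and D3 do not overlap for cells with recombinase genes alone (20.9% and 10.0%) or with both (7.66% and 1.67%), and overlap for surrogate light chain alone (4.89% and 2.93%).

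Within the cells that had *Rag1* or *Rag2* and no surrogate light chain, the other early genes were at similar levels at S3 and D3. These cells were chosen by UMIs of the members themselves. *Vpreb3* and *Ebf1* were each found in 98.5% of them at S3 and 100% at D3. The choice alone can keep the levels alike, so the comparison cannot show whether levels within a cell type changed. *Vpreb3* stood at 2922 CPM in the 196 cells of S3 and 2882 in the 24 cells of D3 (log2 ratio -0.02, -0.17 to 0.13). *Pax5* stood at 347.6 and 373.0 CPM (0.10, -0.34 to 0.52) and *Il7r* at 394.4 and 497.4 CPM (0.33, -0.05 to 0.70). *Ebf1* was 3599 CPM at S3 and 3950 at D3 (0.13, 0.00 to 0.26), the other way from its ratio over all *Cd79a*-positive cells. In the cells with no recombinase or surrogate light chain UMI, *Vpreb3* had 664.6 CPM at S3 and 351.0 at D3 (-0.92, -1.03 to -0.81) and *Il7r* 61.0 and 35.2 CPM (-0.79, -1.16 to -0.44).

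Among cells with at least 3 *Cd79a* UMIs and no *Ms4a1* UMI, 310 at S3 and 33 at D3, 0 of the 10 genes were at least 2-fold lower, against 9.53% of 10067 genes, and the median log2 ratio was -0.40, against -0.12 for all genes. Without the limit of 3 *Cd79a* UMIs, the cells lacking *Ms4a1* numbered 505 at S3, of which those 310 are a part, and 95 at D3, of which the 33 are a part. In them 10 of the 10 genes were at least 2-fold lower, against 9.77% of 11943 genes, with a median of -1.43 against -0.14. *Cd79a* itself stood at 935.1 CPM at S3 and 462.4 at D3 in this wider set (log2 ratio -1.02, -1.13 to -0.91). In the stricter set it stood at 1870 and 1823 CPM (-0.04, -0.15 to 0.08). The part of cells with 1 or 2 *Cd79a* UMIs in the 10 ratios was not tested. *Rag1* was found in 60.3% (54.6% to 65.8%) of the 310 cells and 45.5% (28.1% to 63.6%) of the 33, *Igll1* in 27.1% (22.2% to 32.4%) and 24.2% (11.1% to 42.3%), and *Il7r* in 81.9% (77.2% to 86.1%) and 69.7% (51.3% to 84.4%). With 33 cells at D3, differences of this size could not be told from counting error by cells. Within these cells the UMI ratios of *Rag1* (-0.90, -1.41 to -0.42), *Vpreb1* (-0.82, -1.14 to -0.52) and *Igll1* (-0.71, -1.08 to -0.35) were still below 0 and that of *Dntt* was 0.17 (-0.18 to 0.50). Both sets without *Ms4a1* were chosen after the data were seen.

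**Figure D3:**
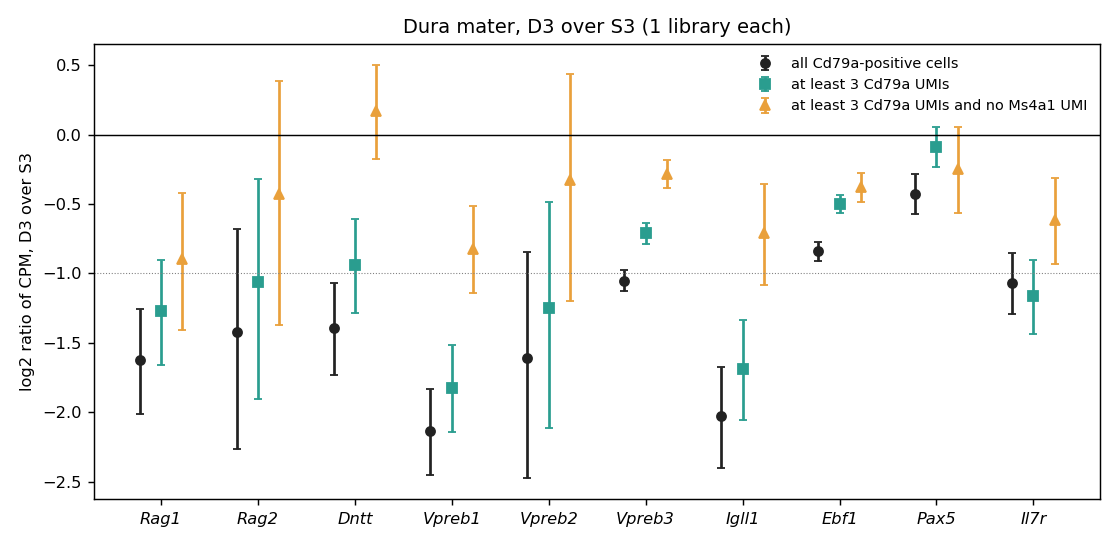
Log2 ratio of CPM in dura mater, D3 over S3, for each gene in 3 sets of cells, with counting intervals; the dotted line is a 2-fold lower level. Black points (all *Cd79a*-positive cells) reach the line for 8 of 10 genes, green squares (at least 3 *Cd79a* UMIs) for 6, and orange triangles (at least 3 *Cd79a* UMIs and no *Ms4a1*) for 0.

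Detection in the same cells grouped the genes further. Of the 93 *Igll1*-positive cells at S3, 78.5% also had *Vpreb1* and 37.6% *Vpreb2*, and *Vpreb2* was found in 0.118% of the cells without *Igll1*. Of the 41 *Dntt*-positive cells, 78.0% had *Igll1* and 65.9% had *Rag1*. *Il7r* was found in 74.4% of *Rag1*-positive cells and in 24.8% of *Cd79a*-positive cells without *Rag1*. *Ighd* gave a UMI in 39.3% of *Rag1*-positive and 37.6% of *Igll1*-positive cells (42.8% and 42.4% of cells without these genes), while *Ms4a1* did in 19.2% and 7.53% (55.2% and 50.5%). In *Dntt*-positive cells *Ighd* was found in 19.5%, against 42.9% of cells without *Dntt*, and in *Vpreb2*-positive cells in 19.4%, against 42.8%.

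**Figure D4:**
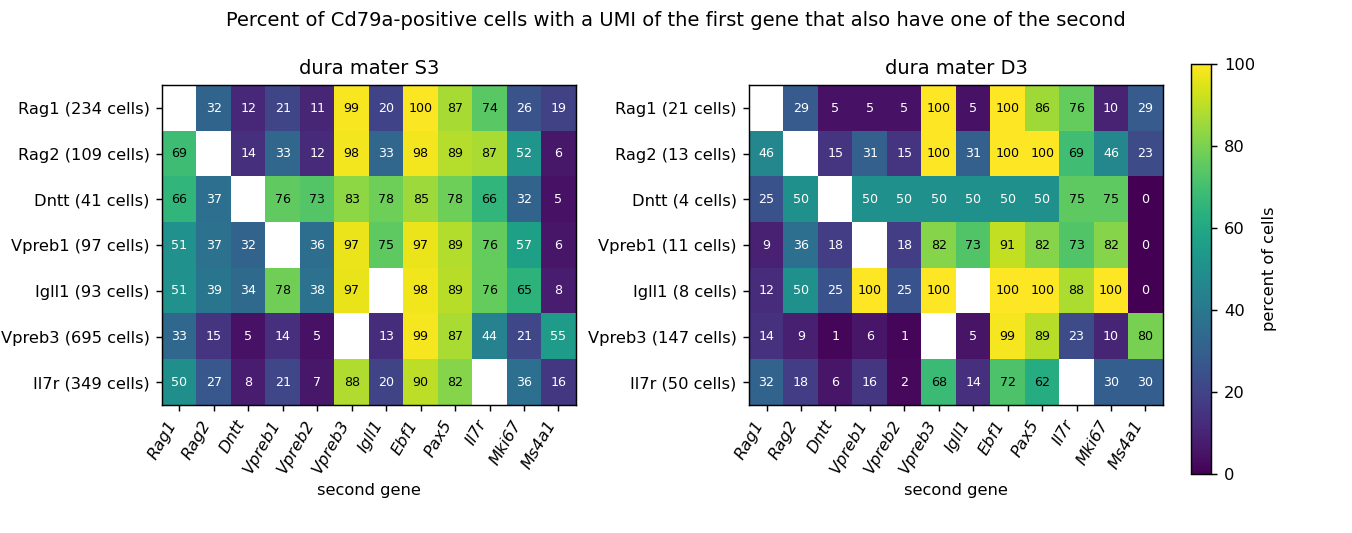
Heat map of the percent of *Cd79a*-positive dura mater cells with a UMI of the row gene that also had one of the column gene, S3 left and D3 right, with cell numbers beside the rows. *Vpreb3* and *Ebf1* were found in 99.1% and 99.6% of the 234 *Rag1*-positive cells at S3 and in all 21 at D3.

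Across the 940 *Cd79a*-positive cells of dura mater S3, which share a library and differ in depth, the deposited log values of *Vpreb1* and *Igll1* had Pearson's r = 0.94 (0.93 over 239 cells at D3), those of *Rag1* and *Rag2* 0.34 (0.46) and those of *Rag1* and *Igll1* 0.21 (0.02). The 5 genes outside the set whose values went most with *Rag1* at S3 were *Atp1b1* (r = 0.65, 0.63 at D3), *Tifa* (0.64, 0.56), *Xrcc6* (0.61, 0.70), *Sox4* (0.58, 0.40) and *Rhoh* (0.56, 0.52). *Xrcc6* encodes Ku70, which binds broken DNA ends before they are joined. For *Igll1* they were *Adgrg1* (0.66, 0.56), *Gfra2* (0.64, 0.33), *Lef1* (0.63, 0.48), *2900026A02Rik* (0.58, 0.30) and *Impdh1* (0.57, 0.36). For *Ebf1* they were *Cd79b* (0.85, 0.83), *Ighm* (0.83, 0.85), *Chchd10* (0.77, 0.74), *Foxp1* (0.72, 0.61) and *Ptprcap* (0.70, 0.67).

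Other genes of the pathway were read from lists and are described by counts. Over all 12488 genes with at least 10 UMIs, 7.07% were at least 2-fold lower, 6.59% at least 2-fold higher and 18.6% had an interval below 0. In cells with at least 3 *Cd79a* UMIs, 6.44% of 11357 genes were at least 2-fold lower and 13.2% had an interval below 0. The share of all genes with an interval above 0 was not counted. Of 11 measured progenitor and precursor genes, 4 were at least 2-fold lower in *Cd79a*-positive dura mater cells at D3, 0 were higher, and the median log2 ratio was -0.88. Among them *Myb*, a progenitor transcription factor, stood at 177.5 CPM at S3 and 70.2 at D3 (-1.34, -1.57 to -1.12) and *Lef1* at 49.8 and 20.2 CPM (-1.30, -1.74 to -0.89). *Kit* (0.22, -0.33 to 0.73) and *Flt3* (0.58, 0.12 to 1.03), receptors of progenitors, had the highest ratios of the list, on 41 and 59 UMIs at D3. In cells with at least 3 *Cd79a* UMIs they were at 2.83 (1.83 to 3.87) and 1.65 (0.73 to 2.54), the 2 genes of the list at least 2-fold higher there, against 3 lower and a median of -0.65. The 41 and 59 UMIs are those of all *Cd79a*-positive cells. *Kit* is also one of the mast cell markers used here, and which cells carried the UMIs of these genes was not tested.

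The list of 9 genes for end joining also holds *Hmgb1* and *Hmgb2*, which encode chromatin proteins. Of the 9, 3 were at least 2-fold lower and 0 higher, with a median of -0.71. In cells with at least 3 *Cd79a* UMIs, 2 were at least 2-fold lower, with a median of -0.60. *Lig4*, the ligase that seals the joints, stood at 29.1 CPM at S3 and 11.4 at D3 (-1.35, -1.94 to -0.80), and *Xrcc6* at 153.9 and 63.3 CPM (-1.28, -1.52 to -1.05). *Dclre1c*, which encodes Artemis, the nuclease that opens the hairpin ends, stood at 37.5 and 53.8 CPM (0.52, 0.23 to 0.80), but its ratio was -0.02 (-0.53 to 0.47) in cells with at least 3 *Cd79a* UMIs, and *Xrcc4* had 0.47 (-0.15 to 1.05). Of 12 proliferation genes, 2 were at least 2-fold lower and all 12 intervals lay below 0, with a median of -0.83, from *Cdk1* (-1.20) and *Ube2c* (-1.13) to *Mcm5* (-0.62) and *Cenpa* (-0.57). With at least 3 *Cd79a* UMIs, 0 of the 12 were at least 2-fold lower, all 12 intervals still lay below 0, and the median was -0.72.

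Of 12 transcription regulators of B cells, 0 passed 2-fold in either direction and 9 intervals lay below 0 and 3 above, with a median of -0.30. *Irf4* (-0.97) and *Bach2* (-0.87) had the lowest ratios, and *Runx1* (0.21) and *Spi1* (0.38), which myeloid cells also carry, the highest. In cells with at least 3 *Cd79a* UMIs *Spi1* was at 0.15 (-0.06 to 0.36) and the median of the list at -0.02. Of 11 genes of receptor signalling, 0 passed 2-fold, with a median of -0.27, from *Cd72* (-0.57) and *Blnk* (-0.54) to *Pik3cd* (0.21) and *Lyn* (0.29).

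Of 13 genes of mature B cells, 0 passed 2-fold, 8 intervals lay above 0 and 1 below, and the median was 0.33. *Ighd* stood at 99.2 CPM at S3 and 153.7 at D3 (0.63, 0.46 to 0.80) and *Cr2*, a complement receptor, at 8.66 and 15.3 CPM (0.82, 0.24 to 1.38), while *Ccr7* was at 0.04 (-0.11 to 0.19) and *Tnfrsf13c*, the BAFF receptor, at -0.48 (-0.63 to -0.34). With at least 3 *Cd79a* UMIs, 12 of the 13 intervals lay above 0 and the median was 0.61. No share over all genes stands beside these counts of intervals above 0. Of 5 plasma cell genes 1, *Sdc1* (-1.23), was at least 2-fold lower and 0 were higher, with *Jchain* at -0.50, *Xbp1* at 0.29 and *Prdm1* at 0.89. With at least 3 *Cd79a* UMIs, 0 of these 5 passed 2-fold and the median was -0.05.

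Outside *Cd79a*-positive cells, *Il7r* and *Dntt* had the most UMIs of the 10 genes in dura mater. *Il7r* stood at 76.9 CPM in all other cells of dura mater S3, 60.3 in dura mater D3, 124.0 in brain S3 and 40.5 in brain D3. It was found in 18.6% of these cells at S3 and 18.4% at D3 in dura mater, and the log2 ratio of its level was -0.35 (-0.43 to -0.27). The gates that follow need at least 3 of 5 marker genes, and 1 cell can pass several. Of cells with T cell markers, 78.1% (72.6% to 82.9%, 269 cells) had *Il7r* in dura mater S3 and 75.9% (69.8% to 81.3%, 228 cells) in dura mater D3, and of those with group 2 innate lymphoid cell (ILC2) markers 91.9% (85.99% to 95.9%) and 83.7% (77.4% to 88.8%). Cells with macrophage or monocyte markers had it in 13.2% and 10.0%.

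*Dntt* had 13.4 CPM in the other cells of dura mater S3 (429 UMIs in 50 cells) and 12.4 CPM in D3 (468 UMIs in 24 cells), with a log2 ratio of -0.11 (-0.30 to 0.08). The 5 highest cells held 70.9% of these UMIs at S3 and 81.4% at D3. It was found in 13.9% (9.85% to 18.9%) of the 244 dura mater S3 cells with plasmacytoid dendritic cell markers and in 5.21% (2.94% to 8.44%) of the 288 at D3. In the brain this share was 2.51% at S3 and 2.48% at D3. The gates overlap, as a cell can pass several. Of the *Dntt* UMIs in the other cells of dura mater S3, cells with plasmacytoid dendritic cell markers held 52.2%. Those with neutrophil markers held 58.3%, in 21 of 1304 cells (1.61%). At D3 these gates held 49.1% and 30.8%, and cells with mast cell markers 22.9%, in 3 cells. *Rag1*, *Rag2*, *Vpreb2*, *Igll1* and *Pax5* were found in at most 0.920% of the other cells of any library.

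**Figure D5:**
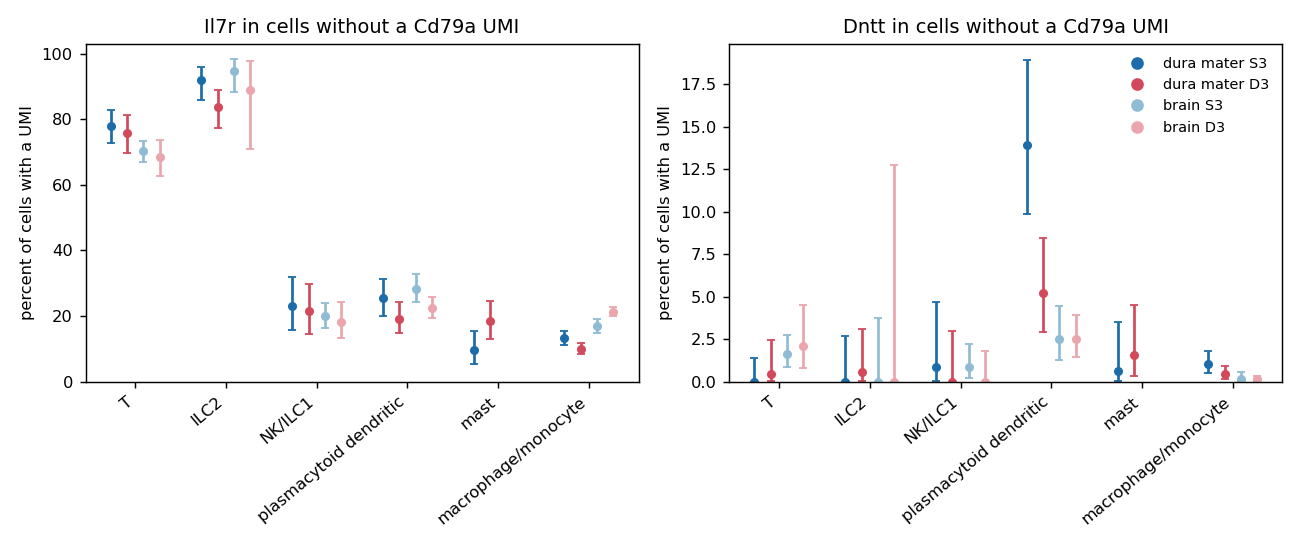
Percent of cells without a *Cd79a* UMI that had a UMI of *Il7r* (left) or *Dntt* (right), by marker gate and library, with exact binomial 95% intervals. The gate of neutrophil markers is not drawn though it held many cells, and a gate with no cells or too few in a library is left out. *Il7r* was highest with ILC2 markers (83.7% to 94.8% over the 4 libraries) and *Dntt* with plasmacytoid dendritic cell markers in dura mater S3 (13.9%).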

How the data were processed

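The authors mapped the reads of each library with Cell Ranger 3.1.0 to mm10 and normalized them in Seurat 3.1.0. The deposited values are natural log values, ln(1 + 10000 × UMIs of the gene / UMIs of the cell). Every value came back as a whole number of UMIs within 1e-06, and these were used. A deposited matrix also holds barcodes outside the filters the methods state, so the filters were applied here: 1000 to 6000 detected genes and at most 7% mitochondrial UMIs. Scrublet scores (scanpy 1.11.5) marked 0 to 3 doublets per library at its own threshold, which was taken as failed, so the highest scores were removed instead, 0.8% per 1000 barcodes, 99 to 281 per library. In dura mater, 541 of 1617 *Cd79a*-positive barcodes at S3 and 141 of 421 at D3 exceeded 7% mitochondrial UMIs.

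UMIs were summed per library and set of cells. Intervals are exact Poisson for CPM and Clopper-Pearson for shares; a log2 ratio has the exact conditional interval of 2 Poisson counts. With 1 library per condition no test was made. UMIs of a cell are not independent, so intervals cover counting error only. The scripts were tested on simulated counts. Genes were counted from 10 UMIs over both dura mater libraries. Named besides the 10 members were, for *Rag1*, *Igll1* and *Ebf1*, the 5 most correlated genes found in at least 5% of cells, and per list the 2 lowest and the 2 highest ratios with at least 50 UMIs. The members, lists and gates were chosen with earlier results of these data known. Positions are from GENCODE vM21, and promoters from RefSeq, in which all 10 genes were matched.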

Additional observations from a re-analysis of the deposited data

Results flagged for a closer look

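In *Cd79a*-positive cells, *Dntt* and *Il7r* were lower at D3 than at S3 in dura mater and higher in the brain. For *Dntt* the log2 ratio was -1.39 in dura mater and 6.08 (4.43 to 8.42) in the brain, where 3 UMIs in 1 cell at S3 stood against 39 UMIs in 2 cells at D3. For *Il7r* it was -1.07 in dura mater and 0.63 (0.18 to 1.06) in the brain, with 192 UMIs at S3 and 57 at D3. In brain cells with at least 3 *Cd79a* UMIs, *Il7r* had 29 UMIs in 12 cells at S3 and 26 in 7 cells at D3. With 1 library each, the difference between the tissues was not tested.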

How the results depend on the processing

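The share of *Cd79a*-positive cells in dura mater had a log2 ratio of D3 over S3 of -1.57, and -1.69 to -1.52 under the 5 alternatives (no cell filter, doublets kept, at least 3 *Cd79a* UMIs, *Cd79a* with *Cd79b*, thinning to 2000 UMIs, which left out 4 and 2 cells). That of *Ighd*-positive cells among them was 0.36, and 0.71 after thinning (20.4% and 33.5%, with 1 and 0 cells left out). The median log2 ratio of the 10 members, -1.41, became -0.87 after thinning, and -0.40 in cells with at least 3 *Cd79a* UMIs and no *Ms4a1*, a gate added after seeing the data. The members past 2-fold, 8 of 10, became 4 after thinning and 0 under that gate. Over all genes, 7.07% were at least 2-fold lower in the main setting and 9.53% under that gate, and this share was not counted after thinning. Of 110 member ratios under 11 alternatives, 109 were below 0. The exception was *Dntt* at 0.17 under that gate, and the cause was not tested. Of the 110, 61 lay within the main counting interval of their gene, 48 lay outside it with the same sign and 1 with the other sign. The alternatives reuse the same libraries and are not independent of each other. *Pax5* ranged from -1.29 in *Cd79a*-positive cells without *Ms4a1* to -0.09 with at least 3 *Cd79a* UMIs. In mean levels over cells, *Vpreb1* and *Igll1* had ratios of -3.17 and -3.04, and after thinning *Igll1* and *Dntt* had -3.67 and -2.55. No paired analysis was possible because each condition is 1 library, and for the same reason no replicate could be left out. At D3, with 239 *Cd79a*-positive cells against 940, *Rag2* and *Vpreb2* rest on 16 and 15 UMIs.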
